A study of Rattus norvegicus with 12 samples.

Results

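RNA of the prefrontal cortex was sequenced from SD rats at postnatal day 28, in 4 libraries of a normal group, 4 of the HIBD model (hypoxic-ischemic brain damage, an injury from lack of oxygen and blood flow) and 4 labelled acupuncture. For the last, the labels name the treatment alone, and the series title places it in injured rats. The sources used here do not give how the injury was made, when and where needles were set, or whether any animals were sham operated. Each library carries its own number, used here as its replicate number, and since the labels do not tie a number to an animal, the spread behind each p-value is that of libraries, which may be technical. The 8 genes described here were fixed as a list of Ensembl gene identifiers, and all 8 were found among the 43206 genes of the deposited files: Cd74, RT1-Da and RT1-Ba of MHC class II, the cytokines Il1b, Il6 and Tgfb1, the chemokine Ccl2, and the NF-kappaB subunit gene Nfkb1. The symbols came with that list. The files hold identifiers only, and no identifier could be matched to the reference table, so the names were not checked against an annotation.

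MHC class II molecules are pairs of an alpha and a beta chain that show peptides to CD4 T cells. Cd74 encodes the invariant chain, which guides them through the cell and blocks their groove until a peptide is loaded. RT1-Da and RT1-Ba encode alpha chains of the 2 classical class II molecules of the rat. In healthy brain, class II is low and is borne mainly by macrophages at the borders and vessels and by a minority of microglia, and it is known to go up when these cells are activated. Il1b and Il6 encode early inflammatory cytokines, Ccl2 encodes a chemokine that draws monocytes, Tgfb1 encodes a cytokine that restrains microglia, and Nfkb1 encodes the p105 precursor of the NF-kappaB subunit p50.

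The class II genes are known to share a promoter module, in which an X box and a Y box stand at a fixed distance and are bound by RFX and NF-Y under the coactivator CIITA. The promoters of the 3 class II genes are shown because this module is what the class II genes are known to share. They come from RefSeq (build GRCr8, matched by symbol; 7 of the 8 genes have an entry), run 5′ to 3′ from 250 bases before to 50 bases after the gene's start, and lie on the + strand. Capitals mark GCAAC, a core found in X boxes, and ATTGG, the core of the Y box, or its reverse complement CCAAT.
RT1-Da promoter, chr20:4515165-4515464: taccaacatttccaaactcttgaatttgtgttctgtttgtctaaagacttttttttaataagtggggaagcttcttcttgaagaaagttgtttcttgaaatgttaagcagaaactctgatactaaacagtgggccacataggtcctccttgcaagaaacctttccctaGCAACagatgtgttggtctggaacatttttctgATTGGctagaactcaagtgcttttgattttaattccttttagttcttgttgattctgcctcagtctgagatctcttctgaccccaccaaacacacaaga
RT1-Ba promoter, chr20:4576807-4577106: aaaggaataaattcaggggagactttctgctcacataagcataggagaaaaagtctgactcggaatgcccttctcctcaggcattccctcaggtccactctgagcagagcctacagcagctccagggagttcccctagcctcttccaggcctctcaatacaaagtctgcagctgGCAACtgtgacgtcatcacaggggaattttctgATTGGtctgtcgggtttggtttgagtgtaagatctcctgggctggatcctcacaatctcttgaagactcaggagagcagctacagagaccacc
Cd74 promoter, chr18:56526956-56527255: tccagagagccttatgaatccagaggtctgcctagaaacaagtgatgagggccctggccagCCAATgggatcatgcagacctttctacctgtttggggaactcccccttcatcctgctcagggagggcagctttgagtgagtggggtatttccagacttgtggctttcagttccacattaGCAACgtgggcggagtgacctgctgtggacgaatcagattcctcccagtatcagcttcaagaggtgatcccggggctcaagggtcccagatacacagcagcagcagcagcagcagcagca
In RT1-Da, GCAAC began at position -82 and ATTGG at -49 from the start, and in RT1-Ba they began at -76 and -43, so that 28 bases separated them in both genes. Of the 38 bases of this stretch, 22 were identical between RT1-Da and RT1-Ba. GCAAC, then any 28 bases, then ATTGG was found on either strand in 17 of 33469 RefSeq promoters of 300 bases (0.0508%), of which 4 belong to the 42 promoters of genes named RT1-: RT1-Da, RT1-Ba, RT1-DOa and RT1-Ha. This spacing was read from the RT1-Da and RT1-Ba promoters themselves, so their match is no test. Cd74 holds GCAAC at -70 and CCAAT at -189, and the spaced pair is not in its window. For the spaced pair, only these exact letters were searched, with both cores on the same strand and in this order. An X box with other letters, or a Y box in the other orientation, would thus be missed. Whether Cd74 holds the module was not tested, and its GCAAC at -70 was not shown to be an X box. Alone, GCAAC was found in 35.1% of promoters and ATTGG in 37.5%, on either strand. These matches describe letters, and none of these data measure binding.

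Levels per length separated the genes into a measurable set and a set near nothing. FPKM (fragments scaled by transcript length and library total, the unit as read from the values) was summed over a gene's transcript rows. Over the 12 libraries Nfkb1 averaged 8.58 ± 0.70 FPKM (SD, n = 12), Cd74 4.74 ± 3.46, Tgfb1 4.64 ± 0.96 and RT1-Da 1.30 ± 1.04 FPKM. Nfkb1 lay above Cd74 in 11 of 12 libraries, with normal replicate 13 as the exception. Cd74 lay above Tgfb1 in 5 libraries and below it in 7, so the order of these neighbours is not set beyond their spread. RT1-Da lay below Tgfb1 and above RT1-Ba in all 12 libraries. RT1-Ba, Il6, Ccl2 and Il1b had means of 0.199, 0.102, 0.0739 and 0.0608 FPKM, and each neighbour in this order was above the next in only 6 or 7 of 12 libraries. RT1-Ba and Ccl2 were listed at 0 in 4 libraries each, and Il1b and Il6 in 3 each. Among the 35753 genes above 0 FPKM, 19.3% had a lower mean than Il1b, 59.1% a lower one than RT1-Da and 79.8% a lower one than Nfkb1. For Il6 and Ccl2 these shares were 25.7% and 21.6%. By their means over the 12 libraries, the 3 inflammatory genes Il1b, Il6 and Ccl2 thus stood low in the measured range. They had at most 97, 74 and 40 estimated counts in a library.

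Cd74 (ENSRNOG00000018735) had its highest mean in normal libraries, but the groups overlapped widely. In normal replicates 8, 10, 11 and 13 it stood at 4.82, 6.06, 3.50 and 13.7 FPKM. In HIBD model replicates 2, 8, 16 and 18 it stood at 5.88, 2.50, 0.597 and 7.75 FPKM. In acupuncture replicates 5, 22, 35 and 55 it stood at 4.38, 1.62, 2.60 and 3.51 FPKM. Normal replicate 13 was far above all others and HIBD model replicate 16 far below, while HIBD model replicates 2 and 18 lay within the normal range. Group means were 7.01 ± 4.57, 4.18 ± 3.23 and 3.03 ± 1.18 FPKM (SD, n = 4 each) in normal, HIBD model and acupuncture libraries. In edgeR's quasi-likelihood test over all genes, on estimated counts scaled by TMM, the log2 fold change was -0.70 between HIBD model and normal (SE 0.63, 95% interval -2.11 to 0.70, adjusted p = 0.573). It was -1.06 between acupuncture and normal (SE 0.64, 95% interval -2.47 to 0.35, edgeR adjusted p = 0.336) and -0.35 between acupuncture and HIBD model (SE 0.63, 95% interval -1.75 to 1.04, edgeR adjusted p = 0.9998). In bulk tissue, fewer cells that carry class II and less class II RNA per cell cannot be told apart.

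RT1-Da (ENSRNOG00000032844) followed nearly the same order of libraries. It stood at 1.33, 1.88, 0.848 and 4.09 FPKM in normal replicates 8, 10, 11 and 13, and at 1.25, 0.436, 0.206 and 2.07 FPKM in HIBD model replicates 2, 8, 16 and 18. In acupuncture replicates 5, 22, 35 and 55 it stood at 1.19, 0.427, 0.885 and 0.972 FPKM. Again normal replicate 13 was highest and HIBD model replicate 16 lowest, and the 3 groups overlapped. The log2 fold change was -1.03 between HIBD model and normal (SE 0.68, 95% interval -2.52 to 0.46, edgeR adjusted p = 0.416). It was -1.10 between acupuncture and normal (SE 0.68, 95% interval -2.60 to 0.39, edgeR adjusted p = 0.344) and -0.07 between acupuncture and HIBD model (SE 0.67, 95% interval -1.55 to 1.40, edgeR adjusted p = 0.9998).

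RT1-Ba (ENSRNOG00000000451) was sparse. It stood at 0.143, 0.352, 0.24 and 0.767 FPKM in normal replicates 8, 10, 11 and 13. In the HIBD model group it stood at 0.401 and 0.32 FPKM in replicates 2 and 18 and was listed at 0 in replicates 8 and 16. In the acupuncture group it stood at 0.054 and 0.107 FPKM in replicates 22 and 35 and was listed at 0 in replicates 5 and 55. In FPKM all 4 acupuncture libraries lay below all 4 normal libraries, as did 15.4% of the genes tested. In CPM (estimated counts scaled to a common TMM-adjusted total) the same groups overlapped, because acupuncture replicate 22 (0.0183 CPM) stood above normal replicate 8 (0.00988 CPM). The log2 fold change between acupuncture and normal was -3.45, with a 95% interval of -7.67 to 0.77 (edgeR adjusted p = 0.296), and 3 of its 17 alternatives reached an unadjusted p under 0.05 with adjusted p from 0.0814 to 0.184. For HIBD model against normal it was -1.36 (95% interval -5.24 to 2.52, edgeR adjusted p = 0.711), and for acupuncture against HIBD model -2.09 (95% interval -6.10 to 1.92, edgeR adjusted p = 0.9998).

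**Figure D1:**
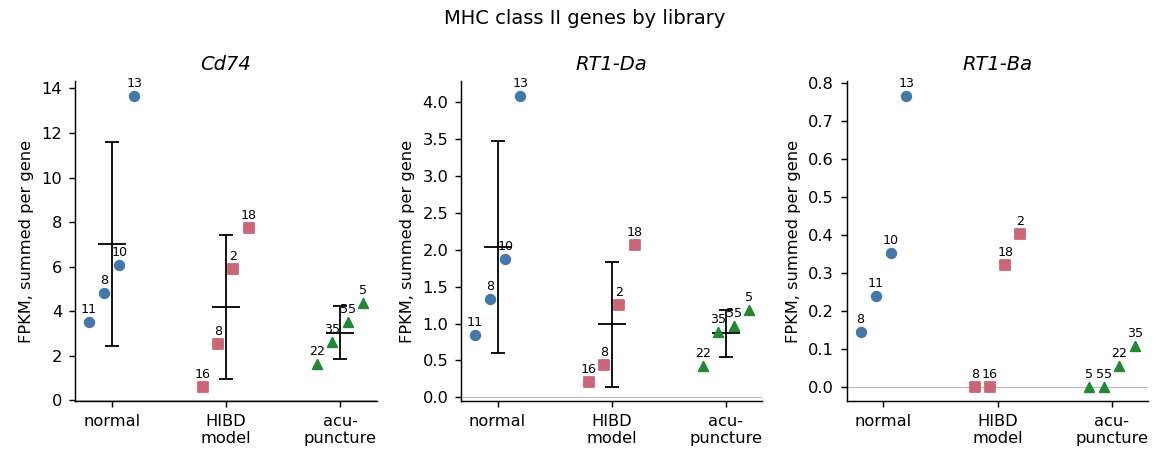
FPKM summed per gene (vertical axis) of Cd74, RT1-Da and RT1-Ba in each library, by group (horizontal axis), with replicate numbers beside the points; bars for Cd74 and RT1-Da are mean and SD of 4 libraries, and RT1-Ba has none because it holds values listed at 0. Normal replicate 13 is the highest point in each panel (13.7, 4.09 and 0.767 FPKM), and HIBD model replicates 8 and 16 lie low in all of them.

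The class II differences depended on single libraries and on how spread between libraries was modelled. Without normal replicate 13, the log2 fold change between HIBD model and normal was -0.17 for Cd74 and -0.45 for RT1-Da, and that between acupuncture and normal was -0.55 for both genes. Without HIBD model replicate 18, the difference between HIBD model and normal was -1.14 for Cd74 and -1.64 for RT1-Da. RT1-Da then had an unadjusted p of 0.0409 (edgeR adjusted p = 0.232). With 1 surrogate variable estimated over all genes, acupuncture against normal turned to 0.58 for Cd74 (edgeR adjusted p = 0.625) and to 0.63 for RT1-Da (edgeR adjusted p = 0.623). Acupuncture against HIBD model turned to 1.01 for RT1-Da, with an unadjusted p of 0.0308 (edgeR adjusted p = 1). That variable was lowest in normal replicate 13 (-0.46) and highest in HIBD model replicate 16 (0.47). It lay between -0.46 and -0.04 in normal and between 0.13 and 0.34 in acupuncture libraries, so it and these 2 groups cannot be told apart.

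Tgfb1 (ENSRNOG00000020652) was separated only between acupuncture and normal, by a small amount that did not pass over all genes. In the other comparisons its groups overlapped. It stood at 5.22, 5.22, 5.21 and 6.21 FPKM in normal replicates 8, 10, 11 and 13. In HIBD model replicates 2, 8, 16 and 18 it stood at 5.22, 3.69, 2.86 and 5.53 FPKM, and in acupuncture replicates 5, 22, 35 and 55 at 3.85, 4.54, 3.79 and 4.31 FPKM. All 4 acupuncture libraries lay below all 4 normal libraries, in FPKM and in CPM, as did 15.4% and 8.6% of all genes tested on these scales. The HIBD model group was divided, with replicates 2 and 18 at the normal level and replicates 8 and 16 below it. Group means were 5.47 ± 0.50, 4.33 ± 1.26 and 4.12 ± 0.36 FPKM (SD, n = 4 each) in normal, HIBD model and acupuncture libraries. The log2 fold change was -0.27 between acupuncture and normal (SE 0.14, 95% interval -0.59 to 0.05, edgeR adjusted p = 0.272), with adjusted p from 0.135 to 0.947 over the alternatives. With the 2 groups alone in the fit, its unadjusted p was 0.0256 (edgeR adjusted p = 0.135). It was -0.26 between HIBD model and normal (SE 0.14, 95% interval -0.58 to 0.05, edgeR adjusted p = 0.316) and -0.01 between acupuncture and HIBD model (SE 0.14, 95% interval -0.32 to 0.31, edgeR adjusted p = 0.9998). Without HIBD model replicate 18, HIBD model against normal was -0.35, with an unadjusted p of 0.0402 (edgeR adjusted p = 0.23). With the surrogate variable in the fit, the difference between acupuncture and normal was 0.02 (edgeR adjusted p = 0.947).

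Nfkb1 (ENSRNOG00000023258) was the steadiest of the 8 genes. Its level lay between 8.36 and 9.76 FPKM in normal, between 7.41 and 9.68 in HIBD model and between 7.84 and 8.78 in acupuncture libraries, and the groups overlapped. On the CPM scale the highest library was only 1.11 times the lowest, against 18.4 times for Cd74 and 1.76 times for Tgfb1. The SD within groups of log2(CPM + 0.1) was 0.063 for Nfkb1, lower than in all but 0.917% of the 15479 genes with a mean of at least 1 CPM. It was 0.978 for Cd74, higher than in 93.6% of them, and 0.197 for Tgfb1, against a median of 0.221. The genes ranked were not matched for level, and the means were 45.7 CPM for Nfkb1, 2.74 for Cd74 and 5.07 for Tgfb1. The part of level in these spreads was not tested. The log2 fold change of Nfkb1 was 0.01 between HIBD model and normal, with a 95% interval of -0.11 to 0.14 (edgeR adjusted p = 0.934). It was 0.02 between acupuncture and HIBD model, with an interval of -0.10 to 0.14 (edgeR adjusted p = 0.9998), and 0.03 between acupuncture and normal, with an interval of -0.09 to 0.15 (edgeR adjusted p = 0.779). These intervals are narrow, while in FPKM the ratio of acupuncture to normal means was 0.931 and in CPM 1.02, so its direction depends on the scale.

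The 3 inflammatory genes were too low to compare closely. Il1b (ENSRNOG00000004649) was listed at 0 in normal replicate 8 and stood at 0.0287, 0.0921 and 0.223 FPKM in normal replicates 10, 11 and 13. It was listed at 0 in HIBD model replicates 2 and 16, with 0.0711 and 0.0794 FPKM in replicates 8 and 18, and stood between 0.0245 and 0.0887 FPKM in all 4 acupuncture libraries. Normal replicate 13 was the only library above 0.0921 FPKM, and the groups overlapped. Il6 (ENSRNOG00000010278) ranged from 0 to 0.199 FPKM in normal, from 0.0149 to 0.215 in HIBD model and from 0 to 0.249 in acupuncture libraries. It was listed at 0 in normal replicate 11 and acupuncture replicates 5 and 35. Ccl2 (ENSRNOG00000007159) ranged from 0 to 0.319 FPKM in normal, from 0 to 0.185 in HIBD model and from 0 to 0.0488 in acupuncture libraries, and was listed at 0 in normal replicate 11, HIBD model replicate 16 and acupuncture replicates 22 and 55. Between HIBD model and normal the log2 fold changes were -1.06 for Il1b, -0.21 for Il6 and -0.35 for Ccl2, with 95% intervals reaching from -4.63 to 3.46 over the 3 genes (edgeR adjusted p from 0.759 to 0.962). Between acupuncture and HIBD model they were 0.68, 0.14 and -1.64 (edgeR adjusted p = 0.9998 each), and between acupuncture and normal -0.38, -0.07 and -1.99 (edgeR adjusted p from 0.495 to 0.985). No difference in these genes was detectable at these levels, and intervals this wide hold large differences in either direction.

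**Figure D2:**
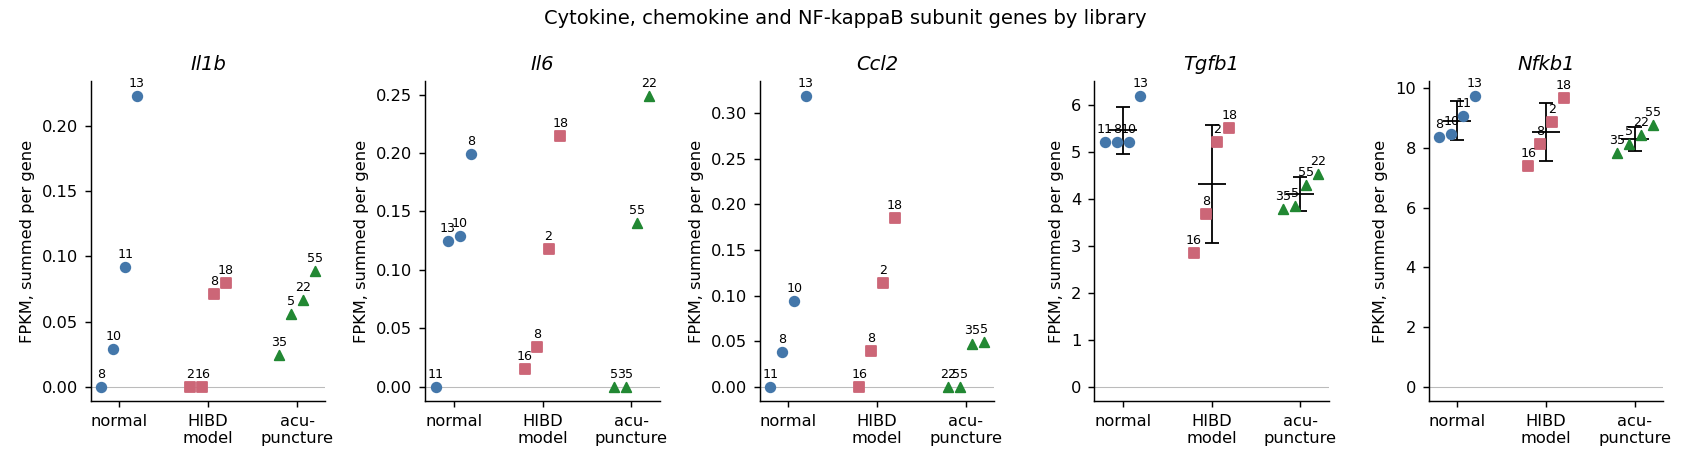
FPKM summed per gene (vertical axis, a separate scale in each panel) of Il1b, Il6, Ccl2, Tgfb1 and Nfkb1 in each library, by group (horizontal axis), with replicate numbers; bars for Tgfb1 and Nfkb1 are mean and SD of 4 libraries. The first 3 genes stay below 0.32 FPKM with several libraries listed at 0, and the acupuncture libraries of Tgfb1 (3.79 to 4.54 FPKM) lie below the normal ones (5.21 to 6.21 FPKM).

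Counted together, 0 of the 8 genes passed an adjusted p of 0.05 in edgeR between HIBD model and normal, where 0.0968% of 27885 genes did, and 0 of 8 between acupuncture and normal, where 0.0825% did. Between acupuncture and HIBD model 0 of 8 passed, where 0% of all genes did, and when all 3 groups were compared at once 0 of 8 passed, against 0.0251%. All 8 were tested, Ccl2 with the lowest mean (0.00875 CPM). At an unadjusted p under 0.05 the count was also 0 of 8 in each comparison, while 22.4% of all genes reached it between HIBD model and normal, 5.31% between acupuncture and HIBD model, 24.5% between acupuncture and normal and 20.6% over the 3 groups at once. The smallest unadjusted p was 0.0858, for Tgfb1 between acupuncture and normal. With so few calls over all genes in this edgeR fit, 0 of 8 is close to the background. That background depended on 1 library. Without normal replicate 10, edgeR called 3032 of 28592 genes between HIBD model and normal and 3094 between acupuncture and normal. The count of the 8 genes called stayed at 0 in both. DESeq2 and limma-voom also called 0 of the 8 genes in each comparison, and DESeq2 gave Ccl2 no adjusted p between acupuncture and HIBD model and over the 3 groups at once. DESeq2 called far more of all genes: 13.5% between HIBD model and normal, 0.649% between acupuncture and HIBD model, 15.5% between acupuncture and normal and 12.6% over the 3 groups at once. For limma-voom these shares were 0.0179%, 0%, 0.0323% and 0.0287%. The median log2 fold change over all genes was 0.01, 0.00 and 0.02 in HIBD model against normal, acupuncture against HIBD model and acupuncture against normal. Of the 8 genes, 7 had a lower mean in HIBD model than in normal libraries, and 7 had a lower one in acupuncture than in normal libraries, Nfkb1 being the exception on the CPM scale. Both counts use the same normal libraries, including replicate 13. They also depend on the scale: in FPKM the mean of Nfkb1 was lower too, with ratios to normal of 0.956 and 0.931. On log2(FPKM + 0.1) the median log2 fold change over all genes was -0.086 and -0.102 in these 2 comparisons. Several of the 8 genes also went together from library to library, as given below, so their directions are not separate results. The share of all genes with a lower mean was not taken. Groups of all 8 genes overlapped between HIBD model and normal and between acupuncture and HIBD model. Over all genes, the HIBD model libraries lay wholly above normal for 6.13% and wholly below for 5.39% in CPM, and wholly below for 7.48% in FPKM. The acupuncture libraries lay wholly above HIBD model for 1.26% and wholly below for 1.01% in CPM, and wholly below for 0.8% in FPKM. They lay wholly above normal for 9% in CPM.

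**Figure D3:**
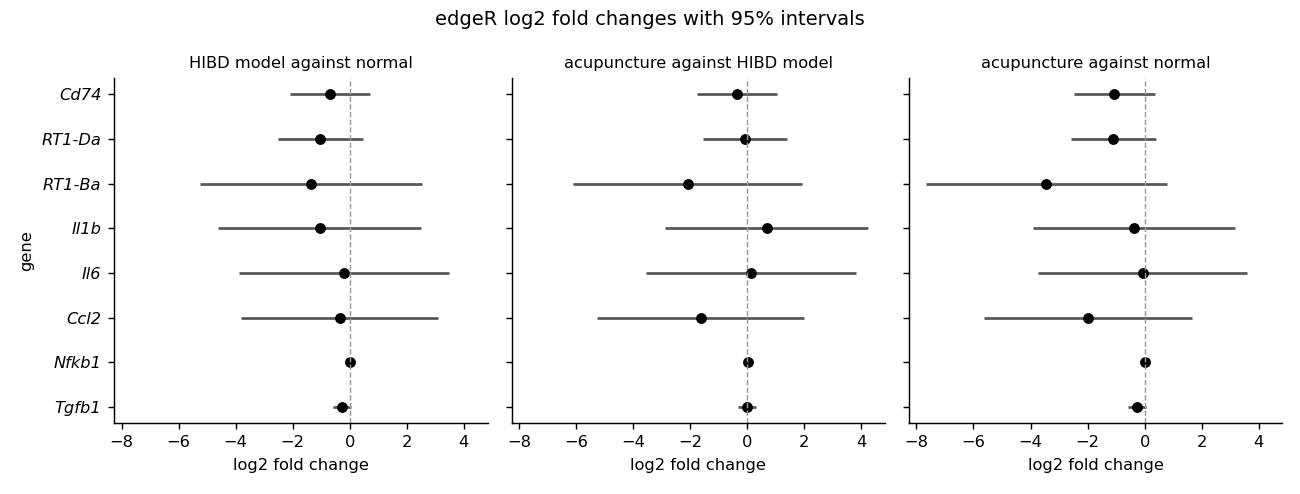
Log2 fold change (horizontal axis) of the 8 genes (vertical axis) in the 3 comparisons, from edgeR's quasi-likelihood test on estimated counts; points are estimates and lines are 95% intervals. Every interval crosses 0, the lines are shortest for Nfkb1 and Tgfb1, and they are longest for RT1-Ba, Il1b, Il6 and Ccl2.

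What stood out was that Cd74 and RT1-Da went together from library to library, within groups as well as across them. Over 12 libraries, log2(CPM + 0.1) of Cd74 and RT1-Da had a Pearson's r of 0.95 and a Spearman's rho of 0.94. The permutation p of r was 1e-05, the smallest that 100000 permutations can give, and 0.00028 after adjustment over the 28 pairs of the 8 genes. With group means subtracted r was 0.95 and rho 0.99. Without normal replicate 13 and HIBD model replicate 16, the libraries farthest from the median of Cd74, r was 0.92 over 10 libraries (permutation p = 0.00012, adjusted 0.00336). Ranked by r with Cd74, RT1-Da stood at place 2 of 27884 other genes, and only 0.129% of them had an r of at least 0.9.

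Other pairs went together less firmly. All 28 pairs had a positive r, with a median of 0.46, and 10 passed an adjusted p of 0.05 by r. Of these 10, 9 joined the class II genes to each other, to Ccl2 or to Tgfb1, and the other joined Il1b to Nfkb1. Such values were not rare: of 27884 other genes, 5.77% had an r of at least 0.7 with Cd74. This share was 4.5% for RT1-Da, 4.16% for RT1-Ba, 2.35% for Ccl2, 7.6% for Tgfb1 and 0.283% for Il1b. Ranked by r with Cd74, Ccl2 stood at place 447, Tgfb1 at 499 and RT1-Ba at 1627. Ranked by r with Il1b, Nfkb1 stood at place 7. By Spearman's rho, RT1-Ba did not pass with Cd74, RT1-Da or Ccl2 (permutation test, adjusted p = 0.0608, 0.0866 and 0.104). Neither did Il1b with Nfkb1 (permutation test, adjusted p of rho = 0.0704). Which pairs passed depended on the scale. On log2(FPKM + 0.1), 15 pairs passed and the median r was 0.65, and the 5 further pairs joined Nfkb1 to Cd74, RT1-Da, RT1-Ba, Ccl2 and Tgfb1. There r of Nfkb1 was 0.81 with Cd74 and 0.89 with Tgfb1 (permutation test, adjusted p = 0.00584 and 0.00168), against 0.24 and 0.35 on log2(CPM + 0.1) (permutation test, adjusted p = 0.564 and 0.422). RT1-Ba had an r of 0.70 with Cd74 (permutation p = 0.0103, adjusted 0.0288, rho 0.70) and of 0.75 with RT1-Da (permutation p = 0.0047, adjusted 0.0174, rho 0.64). With group means subtracted these were 0.62 and 0.70 (permutation test, adjusted p = 0.0779 and 0.0533), and without the 2 libraries farthest from the median 0.54 and 0.54. Tgfb1 had an r of 0.80 with Cd74 (permutation p = 0.00235, adjusted 0.0137, rho 0.76) and of 0.73 with group means subtracted (rho 0.50). Over the 10 libraries without normal replicate 13 and HIBD model replicate 16, its r was 0.40 (permutation p = 0.244). Its rho over them was 0.58, without a test. The size of r thus depended on the libraries left out. Ccl2 had an r of 0.80 with Cd74 and of 0.84 with RT1-Da (permutation test, adjusted p = 0.0137 and 0.0056, rho 0.81 and 0.78), with values near the lower end of the scale. Without normal replicate 13 and HIBD model replicate 16 these were 0.79 and 0.70 (permutation test, adjusted p = 0.0762 and 0.13). Il1b had an r of 0.81 with Nfkb1 (permutation test, adjusted p = 0.00877, rho 0.68), and of 0.80 without normal replicates 8 and 13 (permutation test, adjusted p = 0.0762).

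**Figure D4:**
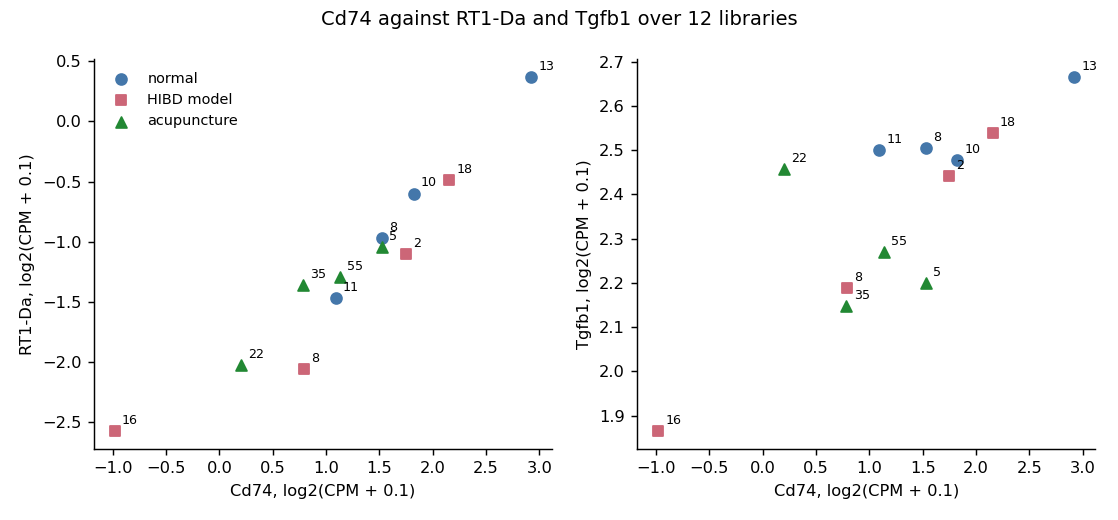
Log2(CPM + 0.1) of RT1-Da (left, vertical axis) and Tgfb1 (right, vertical axis) against that of Cd74 (horizontal axis) in 12 libraries, with colour and shape for the group and the replicate number beside each point. RT1-Da lies close to 1 line with Cd74 (r = 0.95), with libraries of every group along it. Tgfb1 (r = 0.80) is more scattered, with normal replicate 13 and HIBD model replicate 16 at the ends.

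The same libraries were extreme for several of the genes. On the CPM scale, normal replicate 13 was the highest library for 6 of the 8 genes (Cd74, RT1-Da, RT1-Ba, Il1b, Ccl2 and Tgfb1), against 11.3% of all genes tested, and acupuncture replicate 22 was highest for Il6 and Nfkb1. HIBD model replicate 16 was the lowest for 3 of the 4 genes with a single lowest library (Cd74, RT1-Da and Tgfb1), against 12.9% of all such genes. Neither stood apart in total estimated count: normal replicate 13 had 1074381884 and HIBD model replicate 16 had 899545516, within a range of 714904584 to 1090316733. Loci named by a transcript assembler took 0.863% of the estimated counts in normal replicate 13 and 2.35% in HIBD model replicate 16, the highest share of all 12 libraries. In the other libraries this share lay between 0.795% and 2.25%, and its part in the class II levels was not tested. Markers of microglia, macrophages or other cells could not be set beside these values, since the files give no gene names.

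Outside the 8 genes and among the 15476 genes with a mean of at least 1 CPM, those most like Cd74 over the 12 libraries by Pearson's r of log2(CPM + 0.1) were ENSRNOG00000059461 (0.97) and ENSRNOG00000028566 (0.95). For RT1-Da they were ENSRNOG00000006010 (0.96) and ENSRNOG00000059461 (0.95), so 1 identifier was shared. For the other 6 genes the closest gene had an r between 0.83 for Il1b and 0.96 for Tgfb1. They are given as likeness only, since the files do not say what these genes are.

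The transcript rows behind the gene levels differed in how stable they were. The 8 genes had 16 rows, of which 13 carry Ensembl transcript identifiers and 3, all of Nfkb1, were named by an assembler. Cd74 had 2 rows, and ENSRNOT00000025344 held from 65.7% of the gene's FPKM in HIBD model replicate 8 to 94.3% in HIBD model replicate 16, with a median of 75.3%. RT1-Da lay almost wholly in ENSRNOT00000048332, with 87.4% to 98.7% of the gene. RT1-Ba was divided between 2 rows that were each above 0 in 6 libraries, and the third row was listed at 0 in all 12. For Nfkb1, ENSRNOT00000036838 held 59% to 68.6%, lowest in HIBD model replicate 16 and highest in normal replicate 13. The assembled rows TCONS_00205086 and TCONS_00205087 traded places: the first held 0.0114 and 0.0199 FPKM in normal replicate 13 and HIBD model replicate 8, where the second held 1.09 and 0.918, while in HIBD model replicate 16 they held 1.65 and 0.116 FPKM. The sum over rows hid this exchange, so the steadiness of Nfkb1 holds for the gene and not for each row.

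**Figure D5:**
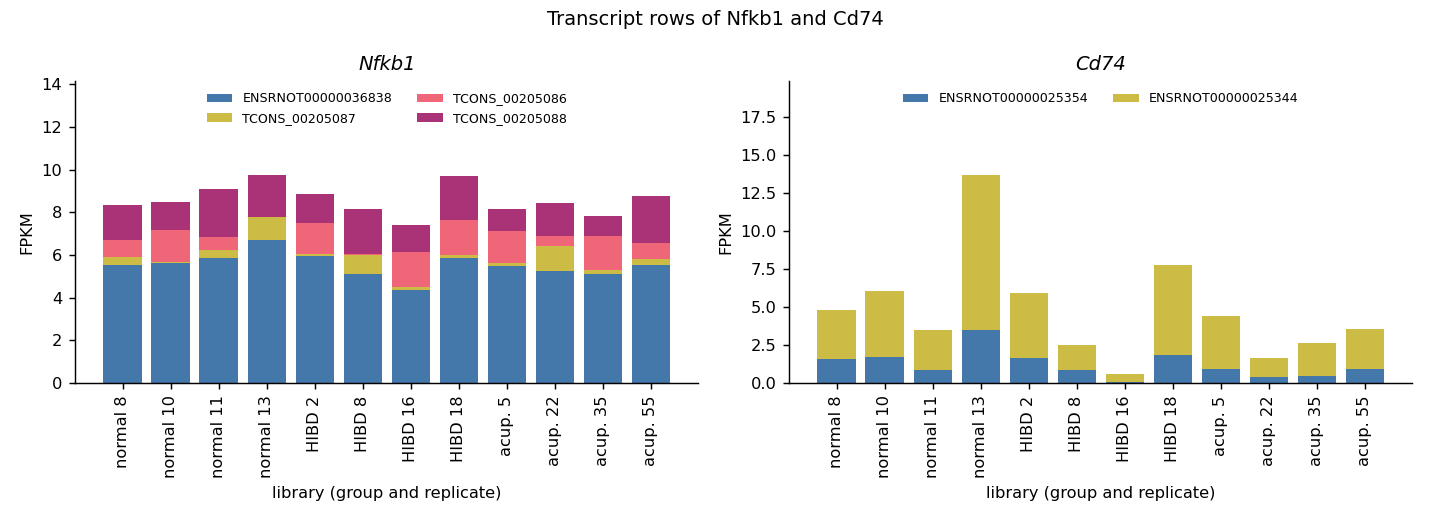
FPKM (vertical axis) of each transcript row of Nfkb1 (left) and Cd74 (right), stacked for the 12 libraries (horizontal axis, group and replicate). The total of Nfkb1 stays between 7.41 and 9.76 FPKM while the assembled rows exchange, and the total of Cd74 runs from 0.597 to 13.7 FPKM with ENSRNOT00000025344 as the larger part in every library.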

How the data were processed

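RNA was extracted with Trizol and libraries were made with a NEBNext kit, per the labels' protocols. HTSeq 0.6.0 and the build Rnor_6.0 are named, without a role, in the submitters' processing notes. Aligner, assembler and strand setting: not given in the sources used here. In the deposited material, the series table holds estimated counts per transcript as deposited, and the deposited files of single libraries hold FPKM per transcript row with gene identifiers. The unit was read from the values. Rows were paired by order: over 12003 rows the table equalled FPKM times a row and a library factor, with a median deviation of 0.00113%. What 1 unit is worth in reads is unknown, so no counting interval is given and an exact 0 is written as listed at 0. Read counts had been assumed when the tests were chosen; edgeR was used all the same.

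Rows were summed per gene. Estimated counts, whole as deposited, were tested with edgeR 4.0.16 in R 4.3.3 (quasi-likelihood, TMM, filterByExpr by group, 12 libraries in 1 fit, no covariate), adjusted by Benjamini-Hochberg over 27885 genes. On simulated data with seeded changes between HIBD model and normal, this test missed more of the changed genes than it called. Being uncalled is thus by itself no sign of an equal level. The changed genes were drawn at random from all tested genes and not matched to the 8 members, so the share missed is not that of any single member. SEs come from the F statistic. Alternatives were RLE factors, no filter, DESeq2 1.42.0, limma 3.58.1 with voom weights, at least 1 CPM in 4 libraries, 2 groups only, limma-trend with a pseudocount of 1 or of 0.1 on log2 FPKM, Ensembl rows only, values divided by 70, 1 surrogate variable (sva 3.50.0) and each replicate left out. Genes named are the 8 members and the 2 genes most like each by Pearson's r, of which 4 identifiers at most are printed. Members, lists and tests were chosen with earlier results of these data known; the motifs were chosen after the promoters were seen. Pathway lists and cell type markers were not analysed here, because 0 identifiers matched the reference. The labelled tissue was not checked against markers for the same reason.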

Additional observations from a re-analysis of the deposited data

Results flagged for a closer look

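Tgfb1 in normal replicate 13 stood at 6.209 FPKM. Its gap to the nearest other normal library was 0.987 of the range of the group, above Dixon's critical value at the 95% level for 4 libraries. The other 3 normal libraries lay between 5.21 and 5.22 FPKM. Of the 24 sets of 4 libraries examined (8 genes in 3 groups), only this 1 met that limit, and chance flags about 1 in 20 groups.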

How the results depend on the processing

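None of the 8 genes passed an adjusted p of 0.05 under any alternative that tested it, leave-one-out fits included. Of the 24 gene and comparison results, 18 changed sign under at least 1 alternative, and the cause was not tested. In acupuncture against normal, Cd74, RT1-Da, RT1-Ba, Ccl2 and Tgfb1 changed sign only with the surrogate variable. That variable and these 2 groups cannot be told apart, so these changes do not show that the sign was unstable. RT1-Ba and Ccl2 in acupuncture against HIBD model also changed sign only with that variable. Log2 fold changes turned sign as follows. With limma-voom, HIBD model against normal was 0.60 for Il6 and 0.05 for Ccl2, acupuncture against HIBD model 0.18 for RT1-Da and -1.63 for Il6, and acupuncture against normal 1.01 for Il1b. On log2(FPKM + 1), Nfkb1 was -0.06, -0.03 and -0.09 in HIBD model against normal, acupuncture against HIBD model and acupuncture against normal, and Il6 was -0.0004 in acupuncture against HIBD model. On log2(FPKM + 0.1), Nfkb1 was -0.07, -0.03 and -0.10 in these comparisons, and acupuncture against HIBD model was 0.14 for RT1-Da and -0.08 for Il6; the median of all genes in acupuncture against normal was then -0.102. With 1 surrogate variable, HIBD model against normal was 0.54 for Il6 and 0.79 for Ccl2. Acupuncture against HIBD model was then 0.63 for Cd74, 1.01 for RT1-Da, 2.06 for RT1-Ba, 0.11 for Ccl2 and 0.13 for Tgfb1. Acupuncture against normal was then 0.58 for Cd74, 0.63 for RT1-Da, 0.30 for RT1-Ba, 0.45 for Il1b, 1.82 for Il6, 0.91 for Ccl2 and 0.02 for Tgfb1. With Ensembl rows only, Il6 was 0.01 in acupuncture against normal.

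With each replicate left out, HIBD model against normal ran from -0.9 to 0.25 for Il6, from -1.01 to 0.89 for Ccl2 and from -0.005 to 0.05 for Nfkb1. Acupuncture against HIBD model ran from -0.71 to 0.08 for Cd74, from -0.4 to 0.53 for RT1-Da, from -0.97 to 0.83 for Il6, from -0.004 to 0.04 for Nfkb1 and from -0.13 to 0.08 for Tgfb1. Acupuncture against normal ran from -0.79 to 0.64 for Il1b and from -1.18 to 0.35 for Il6. The ratio of acupuncture to normal means of Nfkb1 was 0.931 in FPKM and 1.02 in CPM. By Pearson's r, the count of gene pairs past the threshold was 10, against 15 on log2(FPKM + 0.1), 6 with group means subtracted and 1 without the 2 libraries farthest from the median. Those 2 libraries were set by the first gene of each pair in list order. They differed between pairs, so the count of 1 joins different sets of libraries. In this last setting, r turned to -0.33 for Cd74 with Il1b, -0.32 for Cd74 with Nfkb1, -0.37 for RT1-Da with Il1b, -0.41 for RT1-Da with Nfkb1, -0.17 for Il1b with Ccl2 and -0.43 for Ccl2 with Nfkb1.

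Over all genes, calls ranged from 0 to 3753 between HIBD model and normal (27 in edgeR), from 0 to 4324 between acupuncture and normal (23) and from 0 to 181 between acupuncture and HIBD model (0), each highest with DESeq2. The edgeR calls also rose without normal replicate 10, to 3032 between HIBD model and normal and 3094 between acupuncture and normal. The filter at 1 CPM and the division by 70 left 3 members tested (Cd74, Nfkb1 and Tgfb1). No paired analysis was made because the labels do not pair libraries across groups. With 4 libraries a group and low levels of RT1-Ba, Il1b, Il6 and Ccl2, only large differences in these genes could be called.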

Other observations

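Ccl2 took few distinct values. Its estimated count was 5 in normal replicate 8, HIBD model replicate 8 and acupuncture replicates 5 and 35, and the next values were 11, 13, 25 and 40, in normal replicate 10, HIBD model replicates 2 and 18 and normal replicate 13.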
